A study of Homo sapiens with 16 samples.

Results

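HNRNPC and 9 other genes for proteins that bind U-rich RNA, alone or with a partner, were chosen. They were followed in the RNA and in the ribosome-protected footprints (RPFs) of 4 breast cancer lines. The 10 genes were taken by symbol: HNRNPC, its paralog RALY, U2AF1, U2AF2, PTBP1, ELAVL1, TIA1, TIAL1, KHSRP and CELF1. All 10 were listed among the 10799 transcripts of the table that holds MDA-LM2 with parental cells, and all 10 were among its 8393 tested genes. In the table for the HNRNPC knockdown 9 were listed among 8980 transcripts and all of these were among its 4283 tested genes, while TIA1 was not listed.

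Introns, poly(A) sites and the 3′ ends of many mRNAs carry stretches rich in U, and proteins compete for them. In the nucleus the U2AF dimer marks the 3′ splice site by its pyrimidine tract, and HNRNPC and PTBP1 cover such tracts and keep cryptic exons out of mRNAs. In the cytoplasm ELAVL1 shields mRNAs with U-rich or AU-rich 3′ untranslated regions (3′ UTRs) from decay, KHSRP and CELF1 recruit decay enzymes to them, and TIA1 and TIAL1 silence their translation under stress.

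Parental cells are MDA-MB-231, a human triple receptor negative line that is poorly metastatic, and MDA-LM2 is its highly metastatic derivative, selected for colonisation of the lung. The sgControl and sgHNRNPC lines are MDA-MB-231 cells that both carry dCas9-KRAB, a dead Cas9 fused to a repressor domain that silences transcription where a guide RNA places it. The cells were sorted by the blue fluorescence of the repressor construct, transduced with a control guide or a guide against HNRNPC, and selected with puromycin. Both lines of the knockdown thus share the repressor and the selection, and the parental and MDA-LM2 cells were deposited as a table of their own.

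Each line had 2 RPF and 2 RNA libraries, 16 samples in all, and RNA was isolated from the lysates made for footprinting. The study's methods call the replicates of its sequencing assays biological duplicates, and the labels do not say how they were separated, so p-values measure the spread between these samples. The values are read counts per transcript that the authors normalised within each table and kind of library, so tests were made only within a table. RNA totals were 7023013 to 8326052 in the table for MDA-LM2 and 5415889 to 5559039 in that for the knockdown, and RPF totals were 650736 to 679726 and 158011 to 167928. How many footprints were sequenced is unknown. Of the markers of this mesenchymal-like line, VIM, EGFR, AXL, CAV1 and CD44 were listed in both tables, with a summed RNA value of 64311 to 81837 in the former and 25520 to 27763 in the latter. ESR1, PGR, FOXA1, CDH1 and all 7 markers of blood, immune and endothelial cells were not listed. The other luminal and hormone receptor genes were listed in part. XBP1, ERBB2 and GATA3 were listed for MDA-LM2 and parental cells, with a summed RNA value of 1138 to 1292. XBP1 and ERBB2 were listed for the knockdown, with 363 to 425. The summed value of the epithelial genes EPCAM, KRT8 and KRT18 was 13322 to 13415 in parental and 8003 to 8222 in MDA-LM2 cells, and its part in the results below was not tested.

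The mRNAs of these proteins hold U runs of their own. In the listed transcripts (GENCODE version 44, hg38) 8 of 10 had a run of at least 6 U in the 3′ UTR, as had 63.8% of the 10521 transcripts of the MDA-LM2 table with a 3′ UTR. A C followed by 6 U, which overlaps the former motif and was searched on the mRNA strand only, stood in the 3′ UTR of 5 members (PTBP1, ELAVL1, TIA1, TIAL1 and KHSRP), as in 42.9% of those transcripts. The longest run of each 3′ UTR is printed with its flanks, all in the last exon of the transcript, 5′ to 3′ with the run in capitals, to show how far the members differ in such runs.
HNRNPC, chr14:21211140-21211168, minus strand: ucuaagaucaaaUUUUUcaccagauccuc
RALY, chr20:34081150-34081179, plus strand: ugccacuguaaUUUUUUUUccuaaucacuc
U2AF2, chr19:55674576-55674604, plus strand: uuacguaguugaUUUUUccucuuuagucu
U2AF1, chr21:43093011-43093040, minus strand: cauaaggggaaUUUUUUUUaaaaaacaaca
PTBP1, chr19:810921-810949, plus strand: cagagauuuuaUUUUUUUaaagagaaauc
ELAVL1, chr19:7959049-7959078, minus strand: gccuuuuuaUUUUUUUUUUUUaauccuugu
TIA1, chr2:70210100-70210129, minus strand: cacucagguaUUUUUUUUUUaaucuuauuc
TIAL1, chr10:119574583-119574611, minus strand: uuugUUUUUUUUUUUUUUUUUUUUUgcuu
KHSRP, chr19:6414055-6414084, minus strand: gugaaaaaucUUUUUUUUUUccauuuuguu
CELF1, chr11:47471963-47471992, minus strand: auauccugaggUUUUUUUUguuuuuguuuu

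The runs were 5 U long in HNRNPC and U2AF2 and 21 U long in TIAL1. TIAL1 also had the most runs of at least 6 U, 11, followed by ELAVL1 and TIA1 with 8 each and PTBP1 with 5. Of the 10 listed transcripts that of HNRNPC had the shortest 3′ UTR, 117 bases, at the 6.10th percentile of its table. That of RALY had the longest, 4979 bases, with 3 runs. The study represented a gene by its isoform of longest coding sequence, and whether these cells use other 3′ UTRs was not tested. A match says nothing of binding, and a missing match says only that the letters are not in this 3′ UTR.

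HNRNPC was the target of the guide and its RNA fell to 54.1% of the control, while the RNA of its closest relative RALY did not pass the test. HNRNPC coats nascent transcripts in the nucleus, and RALY shares its RNA-binding domain and its preference for U runs. HNRNPC (ENST00000420743, chr14:21211106-21269425) had normalised RNA values of 2162 and 2146 in sgControl and of 1147 and 1183 in sgHNRNPC. Both sgHNRNPC values lay far below both control values. This is a log2 change of -0.89 ± 0.05 (SE, limma adjusted p 5.14e-28). The pseudogene HNRNPCP2, which is not listed, holds 28.3% of the 50-base stretches of this transcript and 62.0% of the 33-base stretches of its coding sequence, so part of the reads could stem from either. In bulk libraries, less HNRNPC RNA in every cell and fewer cells with unsilenced HNRNPC cannot be told apart.

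The RPF values of HNRNPC were 73.4 and 110.9 in sgControl and 54.4 and 67.0 in sgHNRNPC. The groups did not overlap, but the control replicates differed more from each other than the lower of them did from the higher sgHNRNPC value. The log2 RPF change was -0.57 ± 0.19 (SE, limma adjusted p 0.467), with -0.28 in the absence of sgControl replicate 2 and -0.87 in that of sgControl replicate 1. HNRNPC translation efficiency (TE), the RPF value over the RNA value of the same replicate, was 0.0340 and 0.0517 in sgControl and 0.0474 and 0.0566 in sgHNRNPC. Its log2 change was 0.31 with a 95% interval of -0.25 to 0.88 (limma adjusted p 0.758), which leaves its direction unsettled.

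RALY (ENST00000246194, chr20:33993911-34084884) had RNA values of 768 and 872 in sgControl and of 844 and 884 in sgHNRNPC. These overlap, and the change of 0.08 had a 95% interval of -0.05 to 0.20 (limma adjusted p 0.443), which was -0.01 without sgControl replicate 1. RALY RPF values were 31.2 and 51.9 in sgControl and 40.4 and 51.7 in sgHNRNPC, a change of 0.18 ± 0.23 (SE, limma adjusted p 0.889). Within a library the RNA value of HNRNPC was thus 2.81 and 2.46 times that of RALY in sgControl and 1.36 and 1.34 times in sgHNRNPC. In RPF the ratio went from 2.35 and 2.14 to 1.35 and 1.29. As these ratios are taken inside a library, they do not depend on how libraries were scaled to each other.

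Between MDA-LM2 and parental cells HNRNPC and RALY RNA lay lower in MDA-LM2 without passing the test over all genes. HNRNPC RNA values were 2768 and 2664 in parental and 2197 and 1930 in MDA-LM2 cells, and RALY RNA values were 4020 and 3665 against 3365 and 3203. In both genes the groups did not overlap. The RNA change was -0.40 ± 0.12 (SE, limma adjusted p 0.0618) for HNRNPC and -0.23 ± 0.12 (SE, limma adjusted p 0.225) for RALY. With libraries rescaled to equal totals they became -0.23 (adjusted p 0.119) and -0.06 (adjusted p 0.694), where rescaling itself shifted the median of all tested genes by 0.17. Over the alternatives run on all libraries the adjusted p was 0.0363 to 0.126 for HNRNPC and 0.188 to 0.701 for RALY. The 0.0363 came with the replicate number as a block, under which HNRNPC (-0.40) passed the threshold of 0.05. HNRNPC was thus called under that setting, that is, had an adjusted p under 0.05. With single libraries left out, the HNRNPC change ranged from -0.49 (without MDA-LM2 replicate 1) to -0.31 (without MDA-LM2 replicate 2). The RALY change was -0.26 without MDA-LM2 replicate 1. In those fits the remaining MDA-LM2 library is assumed to vary as the parental ones do.

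HNRNPC RPF values were 362 and 354 in parental and 323 and 331 in MDA-LM2 cells, a change of -0.13 ± 0.10 (SE, limma adjusted p 0.441). RALY RPF values overlapped, at 101.7 and 129.7 in parental and 120.0 and 99.7 in MDA-LM2 cells. HNRNPC TE was 0.131 and 0.133 in parental and 0.147 and 0.171 in MDA-LM2 cells. The TE change of 0.27 had a 95% interval of -0.06 to 0.59 (limma adjusted p 0.903), and it was 0.16 without MDA-LM2 replicate 2. The ratio of HNRNPC to RALY RNA values, not divided by length, was 0.688 and 0.727 in parental and 0.653 and 0.603 in MDA-LM2 cells. Per kilobase of transcript, mean HNRNPC RNA was 1742 and RALY RNA 619 in parental cells. In MDA-LM2 cells these were 1324 and 529.

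**Figure D1:**
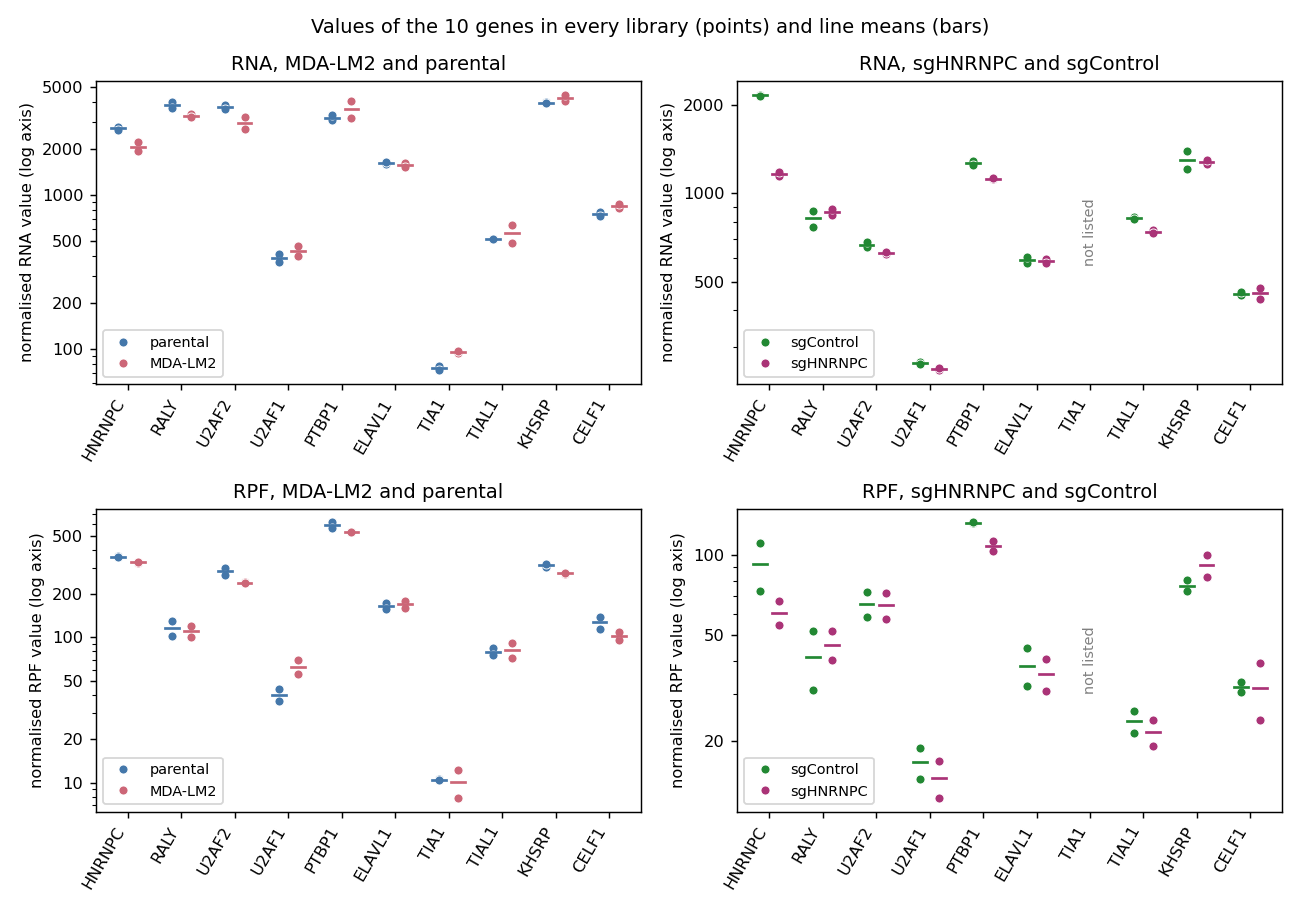
Normalised RNA (top) and RPF (bottom) values of the 10 genes on log axes, in the libraries of MDA-LM2 and parental cells (left) and of sgHNRNPC and sgControl cells (right). Points are libraries and bars are the means of 2 replicates. HNRNPC RNA sits at 1147 and 1183 in sgHNRNPC against 2162 and 2146 in sgControl, and U2AF1 RPF values of MDA-LM2 lie above both parental ones.

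Among the members, limma called 2 of 9 in RNA after the knockdown, HNRNPC and PTBP1, both lower. HNRNPC is the target of the guide, so its lower RNA was set by the design, and PTBP1 was the only other member called. The member counts and the median in this paragraph include HNRNPC. Over all tested genes it called 16% in RNA, and 11.3% were called lower. In RPF it called 0 of 9 members, with 1 (HNRNPC) at an unadjusted p under 0.05, where 0.0233% of all genes were called and 7.68% had an unadjusted p under 0.05. In TE it called 0 of 9, with 0 at an unadjusted p under 0.05, where 0% of all genes were called and 7.75% had an unadjusted p under 0.05. In 5 of 9 members (HNRNPC, PTBP1, TIAL1, U2AF1 and U2AF2) both sgHNRNPC RNA values lay below both sgControl values, an order that 34.6% of all tested genes had, while 54.8% were without overlap, higher or lower. RPF values did not overlap in 3 of 9 members (37.9% of all genes), with HNRNPC and PTBP1 lower and KHSRP higher, and TE values in 2 of 9 (36.6%), with PTBP1 lower and KHSRP higher. The median RNA change of the 9 members was -0.07, and that of all tested genes was -0.04.

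In MDA-LM2 against parental cells limma called 0 of 10 members in RNA (2 at an unadjusted p under 0.05, HNRNPC and U2AF2), against 15.2% of all tested genes (31.8% at an unadjusted p under 0.05). The count was 5 without MDA-LM2 replicate 1 (HNRNPC, RALY, U2AF2, PTBP1 and TIAL1), where 4235 of all 8393 genes were called, and 2 without MDA-LM2 replicate 2 (HNRNPC and U2AF2), where 2828 were called. In RPF it called 1 of 10, U2AF1, against 12% of all genes (5% called higher). In TE it called 0 of 10, with 1 (CELF1) at an unadjusted p under 0.05, against 0.0357% of all genes (5.42% at an unadjusted p under 0.05). Replicates of the lines did not overlap for 6 of 10 members in each measure, where this held for 62.1% of all genes in RNA, 53.3% in RPF and 36.3% in TE. The median change of the 10 members was 0.11 in RNA, -0.11 in RPF and 0.00301 in TE, and over all tested genes these medians were -0.02, -0.01 and 0.03.

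**Figure D2:**
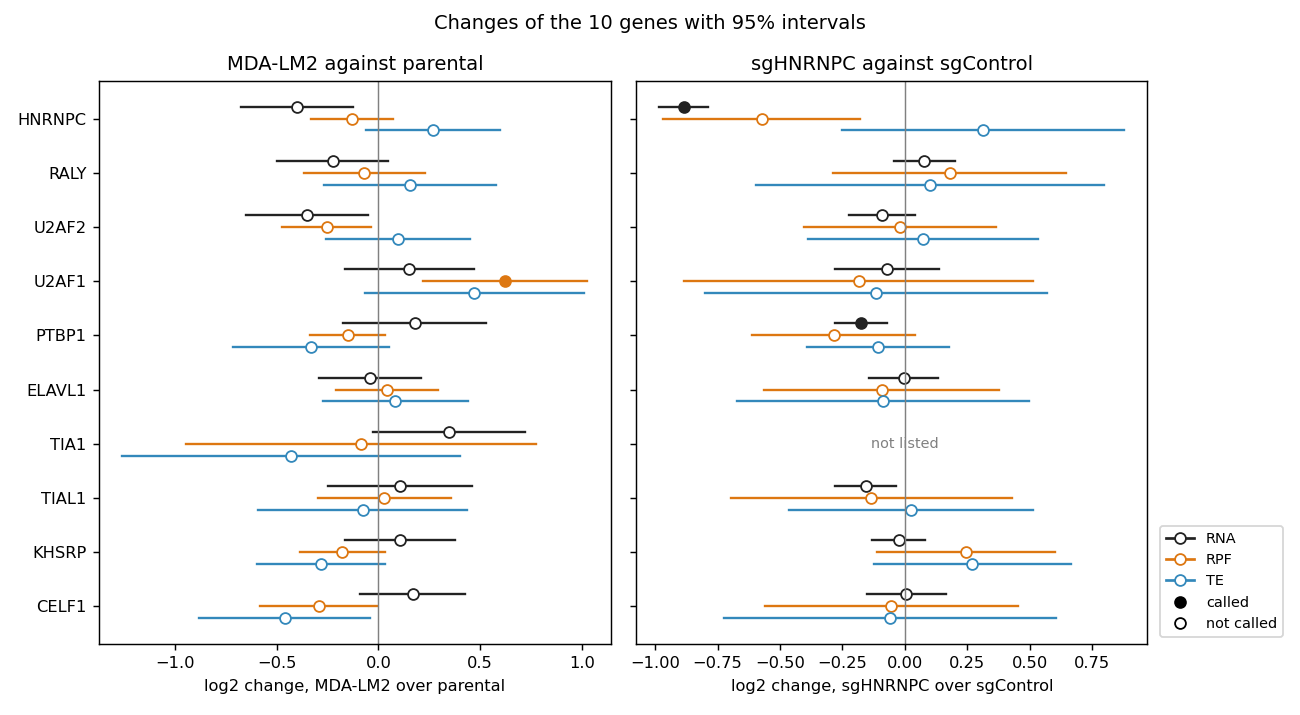
Log2 changes in RNA, RPF and TE with 95% intervals by limma, for MDA-LM2 over parental cells (left) and sgHNRNPC over sgControl cells (right). Filled points passed an adjusted p under 0.05. These are U2AF1 RPF on the left and HNRNPC and PTBP1 RNA on the right, and TIA1 is not listed on the right.

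U2AF1 RPFs rose in MDA-LM2 cells, while its RNA and the RNA and RPFs of U2AF2, the other subunit of U2AF, did not pass the test. U2AF2 binds the pyrimidine tract, the site that HNRNPC also covers, and U2AF1 reads the AG at the end of the intron. U2AF1 (ENST00000291552, chr21:43092956-43107570) had RPF values of 36.2 and 44.4 in parental and of 69.7 and 55.7 in MDA-LM2 cells. Both MDA-LM2 values were above both parental values. The RPF change was 0.62 ± 0.20 (SE, limma adjusted p 0.0346), and the call was lost without parental replicate 1 (0.48, adjusted p 0.200) and without MDA-LM2 replicate 1 (0.46, adjusted p 0.296). Over the alternatives run on all libraries its adjusted p was 0.00992 to 0.0465. U2AF1 RNA values overlapped, at 415 and 365 in parental and 468 and 400 in MDA-LM2 cells, a change of 0.15 ± 0.13 (SE, limma adjusted p 0.471). The TE change of 0.47 had a 95% interval of -0.07 to 1.008 (limma adjusted p 0.903).

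U2AF1 values are uncertain, because a near-identical copy was listed in both tables. The copy (ENST00000610664, chr21:6484623-6499248) belongs to a gene that the annotation marks as an artifact, a duplicated stretch of the chromosome 21 assembly. It holds 98.7% of the 50-base stretches of the U2AF1 transcript and 100% of the 33-base stretches of its coding sequence. Coding footprints of that length thus cannot be assigned to either entry, nor can most 50-base RNA reads. In both parental libraries the 2 entries had the same RNA value. In MDA-LM2 RNA values were 468 and 400 for U2AF1 and 489 and 379 for the copy. RPF values of the copy were 48.6 and 57.8 in parental and 79.9 and 68.3 in MDA-LM2 cells, and its change was 0.47 ± 0.18 (SE, limma adjusted p 0.0802). With the entries summed, RPF values were 84.9 and 102.2 in parental and 149.5 and 124.0 in MDA-LM2 cells, a change of 0.54 ± 0.14 (SE, limma adjusted p 0.00992). The RNA of the sum changed by 0.15 ± 0.14 (SE, limma adjusted p 0.50) and its TE by 0.39 with a 95% interval of -0.08 to 0.87 (limma adjusted p 0.903).

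**Figure D3:**
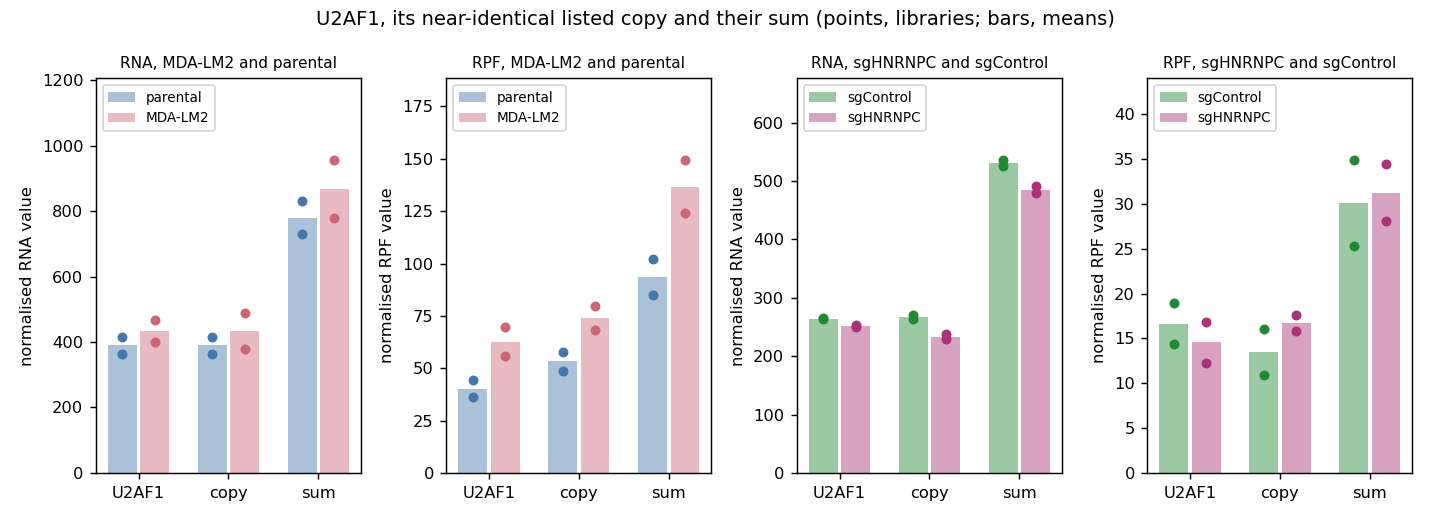
Normalised RNA and RPF values of U2AF1, of its near-identical listed copy and of their sum, for MDA-LM2 and parental cells (left pair) and sgHNRNPC and sgControl cells (right pair). Bars are means of 2 replicates and points are libraries. Summed RPF values of 149.5 and 124.0 in MDA-LM2 lie above 84.9 and 102.2 in parental cells, while those of sgHNRNPC and sgControl overlap.

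U2AF2 (ENST00000308924, chr19:55655035-55674716) had RNA values of 3853 and 3624 in parental and of 3194 and 2688 in MDA-LM2 cells. Its RPF values were 299 and 270 against 240 and 236. In RNA and in RPF both MDA-LM2 values were below both parental ones, with changes of -0.35 ± 0.13 (SE, limma adjusted p 0.110) and -0.25 ± 0.11 (SE, limma adjusted p 0.126) that did not pass the test. The RNA change was -0.48 without MDA-LM2 replicate 1 and -0.23 without the other MDA-LM2 library. Over the alternatives run on all libraries its adjusted p was 0.0632 to 0.257. Within a library, the RPF value of U2AF2 was 3.52 and 2.64 times that of U2AF1 with its copy in parental and 1.61 and 1.90 times in MDA-LM2 cells. The RNA ratio was 4.64 and 4.97 in parental and 3.34 and 3.45 in MDA-LM2 cells. Neither ratio was corrected for transcript or coding length.

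After the knockdown neither U2AF gene passed a test. U2AF2 RNA values were 655 and 682 in sgControl and 623 and 632 in sgHNRNPC, a change of -0.09 with a 95% interval of -0.22 to 0.04 (limma adjusted p 0.395). Its RPF values overlapped almost fully, at 58.7 and 72.7 against 57.6 and 72.1. Summed with its copy, U2AF1 had RNA values of 536 and 526 in sgControl and of 479 and 491 in sgHNRNPC, a change of -0.13 ± 0.07 (SE, limma adjusted p 0.253). The RPF change of the listed U2AF1 alone was -0.19 and that of the sum was 0.06, with SEs of 0.34 and 0.24, so the sign differs with and without the copy and both intervals include 0. The ratio of U2AF2 to HNRNPC RNA values, not divided by length, was 0.303 and 0.318 in sgControl and 0.543 and 0.534 in sgHNRNPC. In RPF this ratio was 0.80 and 0.656 against 1.06 and 1.08.

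PTBP1 RNA fell after the knockdown, by far less than HNRNPC RNA. PTBP1 represses exons next to pyrimidine tracts and also acts in the translation of some viral and cellular mRNAs. PTBP1 (ENST00000356948, chr19:797452-812312) had RNA values of 1282 and 1246 in sgControl and of 1114 and 1123 in sgHNRNPC. Both sgHNRNPC values were lower, to 88.5% of the control. The change was -0.18 ± 0.05 (SE, limma adjusted p 0.0122), over the alternatives run on all libraries its adjusted p was 0.00664 to 0.0813, and the call was lost under quantile normalisation (-0.14, adjusted p 0.0813). It was also lost without sgControl replicate 1 (-0.16, adjusted p 0.110), without sgHNRNPC replicate 1 (-0.17, adjusted p 0.0792) and without sgHNRNPC replicate 2 (-0.18, adjusted p 0.0667). PTBP1 RPF values were 131.7 and 132.5 in sgControl and 103.8 and 112.9 in sgHNRNPC, which do not overlap, with a change of -0.28 ± 0.16 (SE, limma adjusted p 0.717). Its TE change was -0.11 with a 95% interval of -0.39 to 0.18 (limma adjusted p 0.848).

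In MDA-LM2 cells the PTBP1 replicates stood apart in RNA, at 3167 and 4110, against 3066 and 3315 in parental cells. The change was 0.18 ± 0.15 (SE, limma adjusted p 0.447), with 0.37 when MDA-LM2 replicate 1 was left out and -0.01 when replicate 2 was. PTBP1 RPF values were 616 and 566 in parental and 530 and 532 in MDA-LM2 cells, a change of -0.15 ± 0.09 (SE, limma adjusted p 0.309). TE was 0.201 and 0.171 in parental and 0.167 and 0.1295 in MDA-LM2 cells. The TE change of -0.33 ± 0.18 (SE) did not pass the test (limma adjusted p 0.903). Logistic regression, the test of the study, takes each normalised read as independent and gave -0.34 ± 0.07 (SE, adjusted p 4.74e-05) for the same change.

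ELAVL1 RNA changes were close to 0 in both comparisons. Unlike its neuronal relatives, ELAVL1 is present in nearly all cell types. ELAVL1 (ENST00000407627, chr19:7958573-8005641) had RNA values of 1586 and 1637 in parental, 1605 and 1526 in MDA-LM2, 576 and 605 in sgControl, and 599 and 579 in sgHNRNPC cells. Values of the compared lines overlapped in both tables. The RNA change was -0.04 with a 95% interval of -0.29 to 0.21 in MDA-LM2 (limma adjusted p 0.816) and -0.00452 with an interval of -0.14 to 0.13 after the knockdown (limma adjusted p 0.980). The former became 0.13 with libraries rescaled to equal totals and 0.07 after quantile normalisation. RPF values of ELAVL1 were 172 and 155 in parental, 178 and 159 in MDA-LM2, 32.1 and 44.7 in sgControl, and 30.9 and 40.8 in sgHNRNPC cells, again with overlap. The TE intervals were wider, -0.27 to 0.44 for MDA-LM2 and -0.67 to 0.50 for the knockdown.

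TIA1 and TIAL1, paralogs that bind U-rich stretches next to 5′ splice sites and in 3′ UTRs and gather in stress granules, differed several-fold in level. Neither passed the test on the values as deposited, and TIAL1 RNA did after the knockdown with libraries rescaled to equal totals. TIA1 (ENST00000433529, chr2:70209444-70248628) had RNA values of 77.5 and 72.9 in parental and of 94.0 and 97.5 in MDA-LM2 cells, without overlap. The change was 0.34 ± 0.16 (SE, limma adjusted p 0.186). Its RPF values were near the minimum for testing, at 10.6 and 10.5 in parental and 7.88 and 12.3 in MDA-LM2 cells, and the TE change of -0.43 had a 95% interval of -1.26 to 0.40 (limma adjusted p 0.935). TIAL1 (ENST00000369093, chr10:119571802-119596495) had RNA values of 521 and 516 in parental and of 486 and 641 in MDA-LM2 cells. The MDA-LM2 replicates lay on either side of the parental ones, and the change was 0.11 ± 0.15 (SE, limma adjusted p 0.660). It was 0.31 when MDA-LM2 replicate 1 was left out and -0.09 when replicate 2 was. TIAL1 RPF values were 83.9 and 75.7 in parental and 72.0 and 91.9 in MDA-LM2 cells.

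After the knockdown TIAL1 RNA was 829 and 816 in sgControl and 746 and 729 in sgHNRNPC. The groups did not overlap. The change was -0.16 ± 0.06 (SE, limma adjusted p 0.0704). Rescaling to equal totals gave an adjusted p of 0.0483, the lowest of the alternatives run on all libraries, and the highest was 0.212. Its RPF values of 26.1 and 21.5 in sgControl and 19.2 and 24.0 in sgHNRNPC overlapped (change -0.13 ± 0.28, SE, limma adjusted p 0.947). The RNA value of TIAL1 was 6.71 and 7.07 times that of TIA1 in parental and 5.17 and 6.57 times in MDA-LM2 cells, and the RPF value was 7.94 and 7.23 times and 9.13 and 7.49 times.

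KHSRP and CELF1, the members that promote mRNA decay, had lower TE values in MDA-LM2 without passing the test. PTBP1 and TIA1 also had both MDA-LM2 TE values below both parental ones. TE values of the lines did not overlap for 36.3% of all tested genes. KHSRP binds AU-rich elements and CELF1 binds GU-rich elements, and both bring in enzymes that shorten the poly(A) tail. CELF1 (ENST00000531165, chr11:47470316-47553117) had TE values of 0.147 and 0.191 in parental and of 0.117 and 0.126 in MDA-LM2 cells. Both MDA-LM2 values were below both parental ones. The TE change was -0.46 ± 0.19 (SE, unadjusted p 0.0332, limma adjusted p 0.890), with -0.28 when parental replicate 2 was left out and -0.65 when replicate 1 was. Its parts had opposite signs, RNA going from 779 and 728 to 823 and 870 (change 0.17 ± 0.11, SE, limma adjusted p 0.334) and RPF from 114.6 and 138.8 to 96.3 and 109.5 (change -0.29 ± 0.14, SE, limma adjusted p 0.194).

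KHSRP (ENST00000398148, chr19:6413348-6424794) had TE values of 0.0752 and 0.0816 in parental and of 0.0667 and 0.0621 in MDA-LM2 cells, also without overlap. The change was -0.28 ± 0.15 (SE, limma adjusted p 0.903), and by logistic regression it was -0.29 ± 0.09 (SE, adjusted p 0.0496). KHSRP RNA was 4021 and 3938 in parental and 4095 and 4480 in MDA-LM2 cells, and its RPF values were 302 and 322 against 273 and 278. In both lines of the knockdown KHSRP RNA overlapped, at 1390 and 1208 in sgControl and 1253 and 1296 in sgHNRNPC, while its RPF values were 80.3 and 73.0 against 82.4 and 100.4. Its TE after the knockdown was 0.0577 and 0.0605 in sgControl and 0.0658 and 0.0775 in sgHNRNPC, a change of 0.27 with a 95% interval of -0.12 to 0.66 (limma adjusted p 0.690). CELF1 RNA was 450 and 459 in sgControl and 477 and 438 in sgHNRNPC, with RPF values of 30.7 and 33.4 against 24.1 and 39.4, so both overlapped.

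Levels of different genes were compared per length, RNA per kilobase (kb) of transcript and RPF per kb of coding sequence. In parental cells U2AF2 and HNRNPC had the highest RNA per kb of the 10, at 1742 each, and their replicate ranges overlapped. KHSRP followed at 1330, then PTBP1 at 995, RALY at 619, U2AF1 without its copy at 413, ELAVL1 at 266, CELF1 at 206, TIAL1 at 102 and TIA1 at 16.2, with no overlap between neighbours after the first pair. The median of the 10562 transcripts with annotated lengths was 75.5, so 9 members lay above it and TIA1 stood at the 12.8th percentile. In RPF per coding kb HNRNPC led at 390, before PTBP1 at 353 and U2AF2 at 200, and TIA1 was lowest at 9.08.

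The ratio of these quantities, TE per length, ordered the members in another way. It takes the length of the 1 listed transcript per gene, and whether shorter or longer forms were used was not tested. TIAL1 (0.664), ELAVL1 (0.630) and TIA1 (0.560) were at the top in parental cells, with overlap between TIAL1 and ELAVL1, and stood at the 85.5th, 84.2nd and 81.0th percentile. CELF1 (0.40) and PTBP1 (0.356) overlapped, as did HNRNPC (0.224) and RALY (0.205). U2AF1 (0.137), U2AF2 (0.114) and KHSRP (0.110) overlapped at the bottom. In MDA-LM2 cells ELAVL1 (0.667) and TIAL1 (0.629) were again at the top and U2AF2 (0.123) and KHSRP (0.0904) at the bottom.

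**Figure D4:**
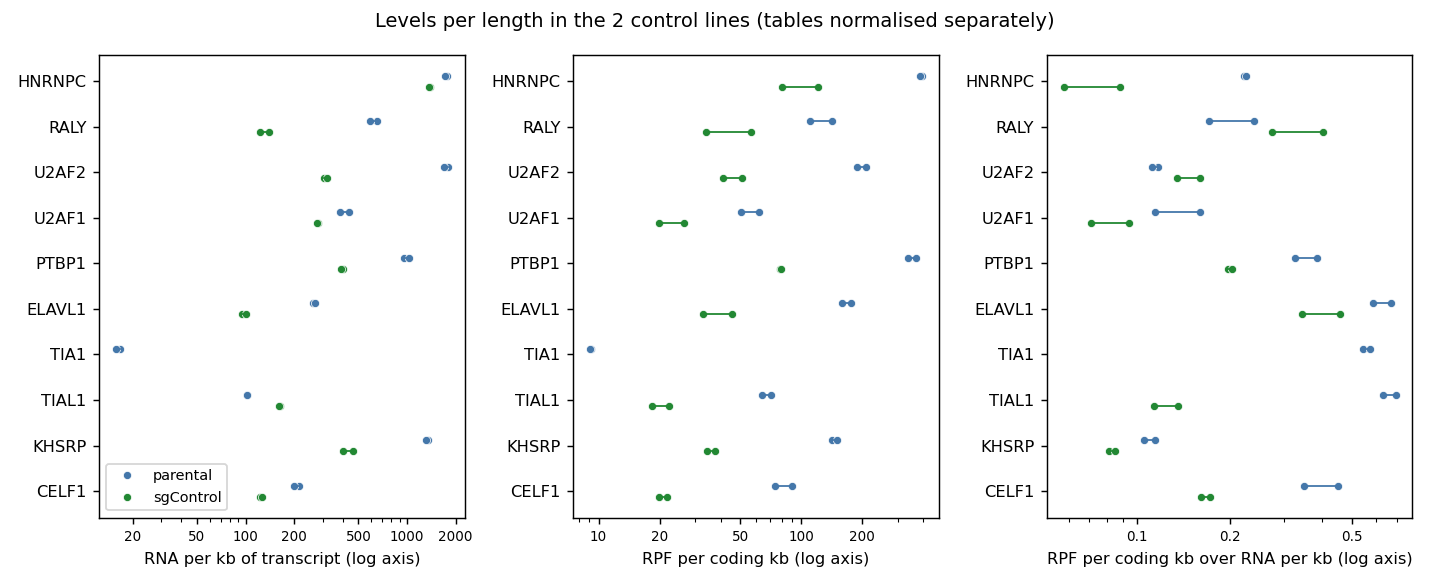
RNA per kb of transcript, RPF per kb of coding sequence and their ratio for the 10 genes, on log axes, in parental and sgControl cells. Points are libraries and lines join the 2 replicates of a line. The tables were normalised separately, and TIA1 is listed for parental cells only. HNRNPC has 1742 RNA per kb in parental and 1382 in sgControl cells, while RALY has 619 and 132.

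In sgControl cells the order was another. HNRNPC led in RNA per kb at 1382, with KHSRP next at 434 where U2AF1 (280) is taken without its copy, and TIAL1 (162) stood above RALY (132), CELF1 (125) and ELAVL1 (97.6), of which RALY and CELF1 overlapped. TE per length was highest in ELAVL1 (0.401) and RALY (0.339), which overlapped, and lowest in HNRNPC (0.0727), U2AF1 (0.0827) and KHSRP (0.0829). TIAL1, at the top in parental cells, stood at 0.124 in sgControl cells, the 63.6th percentile. In sgHNRNPC cells HNRNPC still had the highest RNA per kb of the 9, at 748, above KHSRP at 426. Taken with its copy, over the length of U2AF1, U2AF1 would stand second in RNA per kb in both lines, at 562 in sgControl and 513 in sgHNRNPC, and in parental cells, at 825, between PTBP1 and RALY. In sgHNRNPC cells HNRNPC also had the highest RPF per coding kb, 66.1, in a range that overlapped that of PTBP1 at 64.8.

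Parental and sgControl cells are both MDA-MB-231, yet the tables differed in RNA level. Of the 8764 transcripts that both tables list, 61.7% were lower in sgControl, with a median difference of -0.46 on the log2 scale, and 8 of 9 members were lower. U2AF2 was at a mean of 3739 in parental and 668 in sgControl cells, RALY at 3843 and 820, and KHSRP at 3980 and 1299. HNRNPC was at 2716 and 2154, and TIAL1, at 518 and 823, was the only member that was higher in sgControl. As log2 differences, sgControl minus parental, these were -2.48 for U2AF2, -2.23 for RALY, -1.61 for KHSRP, -1.45 for ELAVL1, -1.33 for PTBP1, -0.73 for CELF1, -0.56 for U2AF1, -0.33 for HNRNPC and 0.67 for TIAL1. The GC content of the transcript moved with the difference. TIAL1 has a GC content of 39.3% and U2AF2 of 60.5%, and HNRNPC has 48.2%, near the median of 48.0% over 8764 transcripts in both tables. Across these transcripts the median difference was 0.93 in the fifth with the lowest GC content and -2.18 in the fifth with the highest, and Pearson's r of the difference with GC content was -0.83. This r is a description across genes that share the same 4 RNA libraries. RALY, at 53.0% GC, compares with a median of -1.34 over transcripts of 51.3% to 58.0% GC, and ELAVL1, at 46.3% GC, with -0.44 over those of 45.2% to 51.3% GC. Line, library preparation and normalisation of the tables cannot be told apart here, and the part of GC content in the differences was not tested.

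**Figure D5:**
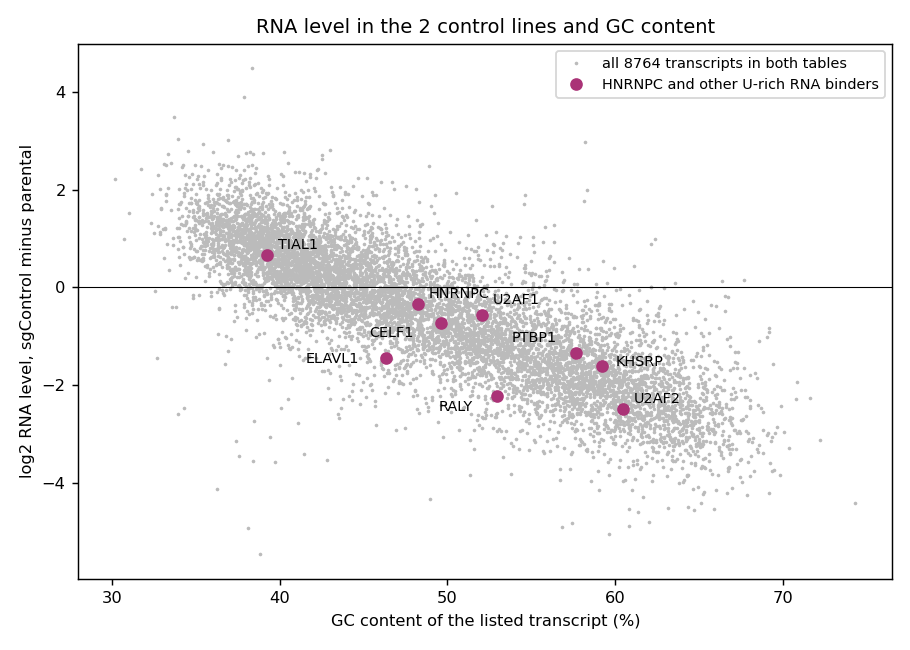
Log2 RNA level in sgControl minus that in parental cells against the GC content of the listed transcript, for 8764 transcripts in both tables (grey) and for 9 U-rich RNA binders (purple). The tables were normalised separately. The difference falls with GC content (Pearson's r -0.83), from 0.67 for TIAL1 at 39.3% GC to -2.48 for U2AF2 at 60.5% GC.

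Genes whose RNA followed that of HNRNPC most closely were sought over the 8 RNA libraries of both tables, as Pearson's r of log2 values centred on the mean of each table, among 4234 other genes tested in both tables with a mean RNA value of at least 50. The 5 highest were UBE2N (0.989), CST4 (0.985), MCM3 (0.984), TMEM14B (0.984) and ARHGEF18 (0.982). These r values rest on 8 libraries of 4 lines and are a description. The knockdown libraries took part in the choice of these genes. Their knockdown changes and p-values below are therefore not an independent result. UBE2N, for a ubiquitin-conjugating enzyme, went from 586 and 588 to 541 and 544 after the knockdown (change -0.11 ± 0.07, SE, limma adjusted p 0.308). CST4, for a secreted cystatin, fell from 297 and 300 to 173 and 174 (change -0.78 ± 0.11, SE, limma adjusted p 4.06e-08). MCM3, for a subunit of the replicative helicase, fell from 1647 and 1564 to 1184 and 1155 (change -0.46 ± 0.05, SE, limma adjusted p 1.20e-11). None of these passed the test in MDA-LM2 cells. Among the members the r with HNRNPC was highest for U2AF2 (0.613), and it was 0.112 for RALY and -0.39 for CELF1.

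Other genes of the same pathways were taken from 6 lists of 84 genes. Of these, 75 were tested between MDA-LM2 and parental cells and 58 after the knockdown. Among them limma called 1 higher and 1 lower in RNA in MDA-LM2, 2.63% of the 76 tested entries against 15.2% of all genes. After the knockdown it called 1 higher and 4 lower in RNA, 8.47% against 16% of all genes. In RPF it called 4 higher and 1 lower in MDA-LM2, 6.58% against 12% of all genes. It called 0 in RPF after the knockdown, against 0.0233% of all genes. There 4 of the 59 entries had an unadjusted p under 0.05 by limma, against 7.68% of all genes. TE calls were 0 in both comparisons, against 0.0357% of all genes in MDA-LM2 and 0% after the knockdown. In MDA-LM2 5 of 76 entries had an unadjusted p under 0.05 in TE by limma (5.42% of all genes). After the knockdown these were 4 of 59 (7.75% of all genes).

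Of the 9 tested genes of 3′ splice site recognition, RBM39, a splicing factor related to U2AF2, rose in MDA-LM2 RNA. Its RNA values were 459 and 498 in parental and 727 and 817 in MDA-LM2 cells, a change of 0.69 ± 0.12 (SE, limma adjusted p 0.0111) that was 0.63 (adjusted p 0.121) without parental replicate 1. Its RPF values of 184 and 157 in parental and 175 and 175 in MDA-LM2 cells overlapped. SF1, which binds the branch point next to U2AF, fell after the knockdown from 1157 and 1166 to 930 and 1023 (change -0.25 ± 0.06, SE, limma adjusted p 0.000454), and the call was lost without sgHNRNPC replicate 1 (-0.18, adjusted p 0.0629). The median RNA change of the list was 0.04 in MDA-LM2 and -0.10 after the knockdown, against -0.02 and -0.04 over all genes.

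Of the polypyrimidine and U-rich splicing regulators, 0 of 11 tested genes were called in MDA-LM2 RNA (3 entries at an unadjusted p under 0.05 by limma), and 1 of 9 after the knockdown. This was HNRNPL, a splicing regulator that binds CA repeats, which fell from 1292 and 1276 to 1132 and 1121 (change -0.19 ± 0.05, SE, limma adjusted p 0.00646). Its call was lost without sgControl replicate 1 (adjusted p 0.0549) and without sgHNRNPC replicate 2 (adjusted p 0.0656). Median RNA changes of the list were -0.05 in both comparisons.

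Of the binders of AU-rich and U-rich elements, 16 were tested in MDA-LM2 and 12 in the knockdown. CPEB2, which controls the poly(A) tail of its targets in the cytoplasm, fell in MDA-LM2 RNA from 126.3 and 134.9 to 92.1 and 79.8 (change -0.60 ± 0.16, SE, limma adjusted p 0.0440). This call was lost with libraries rescaled to equal totals (-0.43, adjusted p 0.108) and without parental replicate 1 (adjusted p 0.196) or parental replicate 2 (adjusted p 0.274). HNRNPDL, a relative of the AU-rich element binder HNRNPD, rose after the knockdown from 1783 and 1690 to 2017 and 2111 (change 0.25 ± 0.05, SE, limma adjusted p 3.37e-05). Without any single library it stayed between 0.21 and 0.29. Chosen after the values were seen, HNRNPDL also rose in MDA-LM2 RPF, from 179 and 193 to 223 and 252 (limma adjusted p 0.0412), and ZFP36L1, which directs AU-rich mRNAs to decay, fell there from 212 and 213 to 162 and 172 (limma adjusted p 0.0463).

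Of the stress granule partners of TIA1, 0 of 10 were called in MDA-LM2 RNA (2 at an unadjusted p under 0.05 by limma) and 1 of 9 after the knockdown. G3BP1, which nucleates these granules, fell from 2057 and 2117 to 1801 and 1810 (change -0.21 ± 0.05, SE, limma adjusted p 0.000456). Of the deadenylases and the exosome, 0 of 19 were called in MDA-LM2 RNA (1 at an unadjusted p under 0.05 by limma) and 1 of 12 after the knockdown, the deadenylase CNOT8, which fell from 309 and 287 to 245 and 241 (change -0.29 ± 0.10, SE, limma adjusted p 0.0367). The CNOT8 call was lost under quantile normalisation (adjusted p 0.0782) and without sgControl replicate 1, sgHNRNPC replicate 1 or sgHNRNPC replicate 2 (adjusted p 0.233, 0.117 and 0.181). Of the m6A writers and erasers, 0 of 10 and 0 of 7 were called in RNA (1 each at an unadjusted p under 0.05 by limma). In MDA-LM2 RPF, and named after their values were seen, the exosome subunits EXOSC4 (27.8 and 29.6 to 50.5 and 45.0, limma adjusted p 0.0302) and EXOSC3 (40.1 and 41.8 to 63.6 and 60.7, adjusted p 0.0378) and the m6A writer subunit VIRMA (97.6 and 117.3 to 149.3 and 151.9, adjusted p 0.0135) rose.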

How the data were processed

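RNA and RPF libraries of 16 samples were deposited as 2 tables of a normalised signal per transcript, 1 transcript per gene. Per the labels and the methods of the study, the authors trimmed reads with cutadapt 2.3, removed rRNA and tRNA reads, aligned to mRNAs with Bowtie2 2.3.5 and, for RPFs, collapsed molecular identifiers, and scaled counts by median-of-ratios size factors. RNA values are whole multiples of a single step in each library and RPF values are not, so RPF depth is unknown and intervals cover only the spread between libraries.

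Transcripts were matched to GENCODE version 44 (hg38), which named 97.9% of the entries of each table. Genes whose mean was 10 or more in RNA and also in RPF libraries were tested on log2(value + 1) with limma 3.58.1 (R 4.3.3; lmFit, eBayes with trend, two-sided, Benjamini-Hochberg over all tested genes, called at 0.05). TE was tested as the interaction over 8 libraries. Fold changes are on the log2(value + 1) scale, which understates changes of low genes. The fits were also run on simulated data with known changes.

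The members and gene lists were chosen with earlier results of these data known. All members are named. From each list and comparison the rule named up to 3 genes with the largest RNA change among calls with a mean RNA value of at least 50, and it named the 5 genes most like HNRNPC. Groups came from sample titles. Sequences of guides and proteins were not used here.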

Additional observations from a re-analysis of the deposited data

How the results depend on the processing

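Alternatives tried were adding 0.5 or 5 before the log, quantile normalisation, a replicate block, rescaling to equal totals, dropping the filter or raising it to a mean of 50, TE within each lysate, logistic regression for TE and leaving out each library, and, chosen after seeing the data, the summed U2AF1 copies. A count test on RNA reads recovered from the values was planned and not run. RNA values are whole multiples of a step, and tests were made on the log scale only. A value that was not called and lay within 1 SE of 0 was given no direction, and 50 sign changes among such values are not counted as reversals. Of 728 values of named genes under an alternative, 698 kept their direction and side of the threshold. Without sgControl replicate 1 RALY RNA after the knockdown was -0.0145, in a leave-one-out range of -0.0145 to 0.17, and PTBP1 RNA in MDA-LM2 ranged from -0.00927 (without MDA-LM2 replicate 2) to 0.37.

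Members called in MDA-LM2 RNA were 0, 1 (HNRNPC) with the replicate block and 0 to 5 without single libraries. In RPF they were 1, and 0 to 1 without single libraries. In TE they were 0, and 2 (PTBP1 and KHSRP, lower) by logistic regression. After the knockdown they were 2 in RNA, 3 with equal totals (TIAL1 added), 1 under quantile normalisation and 1 to 2 without single libraries. Over all genes, calls in MDA-LM2 RNA were 1279, 440 with a minimum mean of 50, where fewer genes were tested, and 492 to 4235 without single libraries. MDA-LM2 RPF calls were 1010 and 641 to 855 without single libraries. MDA-LM2 TE calls were 3, 0 without the filter, with equal totals, under quantile normalisation and within lysates (602, 526, 471 and 542 genes at an unadjusted p under 0.05 by limma), 5 with the replicate block, 181 by logistic regression and 0 to 7 without single libraries. Knockdown RNA calls were 684, 228 with a minimum mean of 50 and 371 to 569 without single libraries. Knockdown RPF calls were 1, 0 without the filter (617 genes at an unadjusted p under 0.05 by limma), 2 with equal totals, 4 under quantile normalisation, 12 with the replicate block and 0 to 41 without single libraries, and knockdown TE calls were 0 by limma and 11 by logistic regression. Apart from the minimum mean, the cause of these differences was not tested. Calls over all genes are not given for MDA-LM2 RNA with the replicate block, nor for knockdown RNA with equal totals or quantile normalisation. Member counts under those settings thus stand without a share of all genes beside them. With equal totals 66.6% of RNA calls in MDA-LM2 were higher, against 38.1% as deposited. Under quantile normalisation 43.2% of knockdown RNA calls were higher, against 29.5%.

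Between lines, replicate numbers are shared only in name. RNA was isolated from footprinting lysates, and with TE taken within the lysate of a number 0 members were called in either comparison by limma (0 at an unadjusted p under 0.05). Deviations of same-numbered libraries correlated with r of 0.23 in MDA-LM2 and parental RNA, 0.04 in their RPFs, -0.00377 in knockdown RNA and 0.03 in knockdown RPFs. Between RNA and RPF of the same number and line r was 0.02 in parental, 0.14 in MDA-LM2, -0.00832 in sgControl and 0.000281 in sgHNRNPC cells. With the replicate block, the limma adjusted p was 0.0363 for HNRNPC RNA in MDA-LM2 and 0.0640 for HNRNPC RPF after the knockdown. With 2 libraries per group, and with a lone library assumed to vary like the others where 1 was left out, a p that misses the threshold does not show that values were alike.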
